A study of Drosophila melanogaster with 4 samples.

Results

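The regions described here are all those on 2L, the left arm of chromosome 2 and one of the large euchromatic arms of the fly genome, in 3 deposited lists of H3K27me2-enriched regions. They were chosen by the scaffold name alone. Replicate 1 had 2347 such regions of 12968 in all, replicate 2 had 2028 of 11483, and the authors' combined list had 3202 of 17184. The lists come from chromatin immunoprecipitation and sequencing (ChIP-seq) of Drosophila melanogaster embryos, wild type and of the Oregon-R strain, at 14 to 16 h, from flies raised in population cages. The antibody was Ab24684, with 2 ChIP samples and 2 inputs. Whole embryos mix all tissues. Separate embryo collections are not stated for the ChIP samples, and their spread may therefore be technical. The number of reads behind each list is unknown, so sequence outside the regions is described as uncalled rather than as unmarked. Positions are those of FlyBase release 5, counted from 1 at the distal end, next to the telomere, towards the centromere.

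H3K27me2 denotes histone H3 dimethylated at lysine 27. It is placed by Polycomb repressive complex 2, whose catalytic subunit in the fly is Enhancer of zeste, and it lies broadly over inactive euchromatin, whereas the trimethylated form is concentrated in Polycomb domains. Near the base of 2L lies the histone gene repeat, a tandem array of units that each carry the genes for the linker histone and the core histones, which are transcribed during DNA replication.

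On 2L the mark was called as many short regions with short gaps, interrupted by a few long uncalled stretches. Regions covered 6.37 Mb in replicate 1 and 5.01 Mb in replicate 2, of an arm of 23.0 Mb. The middle 50% of widths ran from 1661 to 3196 bp in replicate 1 and from 1600.75 to 2864.75 bp in replicate 2, with medians of 2108 and 2017 bp. Regions under 2 kb made up 43.0% of the regions but 25.7% of their summed length in replicate 1, and 48.2% and 31.4% in replicate 2. Only 14 regions of replicate 1 and 4 of replicate 2 reached 10 kb, and together these held 2.64% and 1.14% of the summed length. The gap from one region to the next had a median of 2912.5 bp in replicate 1 and 3624 bp in replicate 2. Gaps under 1 kb made up 25.1% and 23.0% of all gaps, while 1 gap in 10 exceeded 17746 bp in replicate 1 and 22825 bp in replicate 2.

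The authors' score of a region was read only as its percentile within its own list. Score went with width on 2L, with a Spearman's rho of 0.717 across the regions of replicate 1 and 0.651 in replicate 2. These are descriptions across regions of one library each, which are not replicates. Regions under 2 kb had a median percentile of 19.0 in replicate 1 and 23.0 in replicate 2, and regions of 4 to 10 kb had 75.8 and 76.1.

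From the distal to the proximal end, the arm was divided into 5 equal segments of 46 windows of 100 kb (4.6 Mb each). In both replicates, covered share was highest distally, lowest in segments 3 and 4 and intermediate in the most proximal segment. Segments 1 to 5 were covered to 33.0%, 31.5%, 24.0%, 23.1% and 26.9% in replicate 1, and to 27.2%, 24.9%, 17.6%, 17.6% and 21.6% in replicate 2. In the combined list they were covered to 52.2%, 47.5%, 41.9%, 45.2% and 42.4%, so segment 5 lay below segment 4 there. Both replicates of segments 1 and 2 lay above both replicates of segments 3 and 4, while the range of segment 5 overlapped those of segments 2, 3 and 4 and lay below that of segment 1. No difference along or between arms was tested, since flipping signs over 2 replicates allows an exact two-sided permutation p of 0.5 at best.

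Segments 3 and 4 had fewer, narrower and more widely spaced regions than segment 1 in both replicates. Region density was 104 ± 7.84 per Mb in segment 1 against 87.2 ± 13.5 in segment 3 and 88.6 ± 9.38 in segment 4 (SD, n = 2 throughout). In the combined list the order of densities was the opposite, with 145 per Mb in segment 3 and 165 in segment 4 against 137 in segment 1. The median gap was 2661 ± 454 bp in segment 1, 2619 ± 384 bp in segment 2, 4468 ± 759 bp in segment 3, 4301 ± 827 bp in segment 4 and 2822 ± 287 bp in segment 5. Median width was largest in segment 1, at 2170 ± 57.6 bp, and smallest in segment 4, at 1913 ± 60.8 bp. The difference in median width between segments 5 and 1 was -76 bp with all regions, but 110.75 bp when only regions with at least the median score were kept. Of the regions of at least 10 kb, 8 of 14 in replicate 1 and 2 of 4 in replicate 2 lay in segment 1, and segment 5 held 0 in both. The combined list had 33, 33, 15, 11 and 24 such regions in segments 1 to 5.

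Score ranks were also highest in segment 1 and lowest in segment 4. The median percentile was 50.8 ± 1.40 in segment 1, 46.1 ± 0.441 in segment 2, 41.9 ± 3.62 in segment 3, 35.9 ± 1.69 in segment 4 and 42.3 ± 0.353 in segment 5. Among regions of 2 to 4 kb alone, it was 59.3 in segment 1 and 53.7 in segment 4 of replicate 1, and 63.5 and 51.9 in replicate 2. Segment 1 also lay above segment 4 under 2 kb and at 4 to 10 kb, but the extremes differed there. Under 2 kb, segment 3 was highest (21.7 and 27.7), and segment 5 was lowest in replicate 2 (18.2). At 4 to 10 kb, segment 2 was highest in replicate 1 (80.6) and segment 5 lowest in replicate 2 (70.8). Regions in the top 10% of scores of their list were 9.49% of segment 1 but 2.51% of segment 4 in replicate 1, and 8.57% and 3.18% in replicate 2. In the combined list the most proximal segment did not rank below the most distal one, with median percentiles of 47.0 in segment 5 and 45.1 in segment 1.

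**Figure D1:**
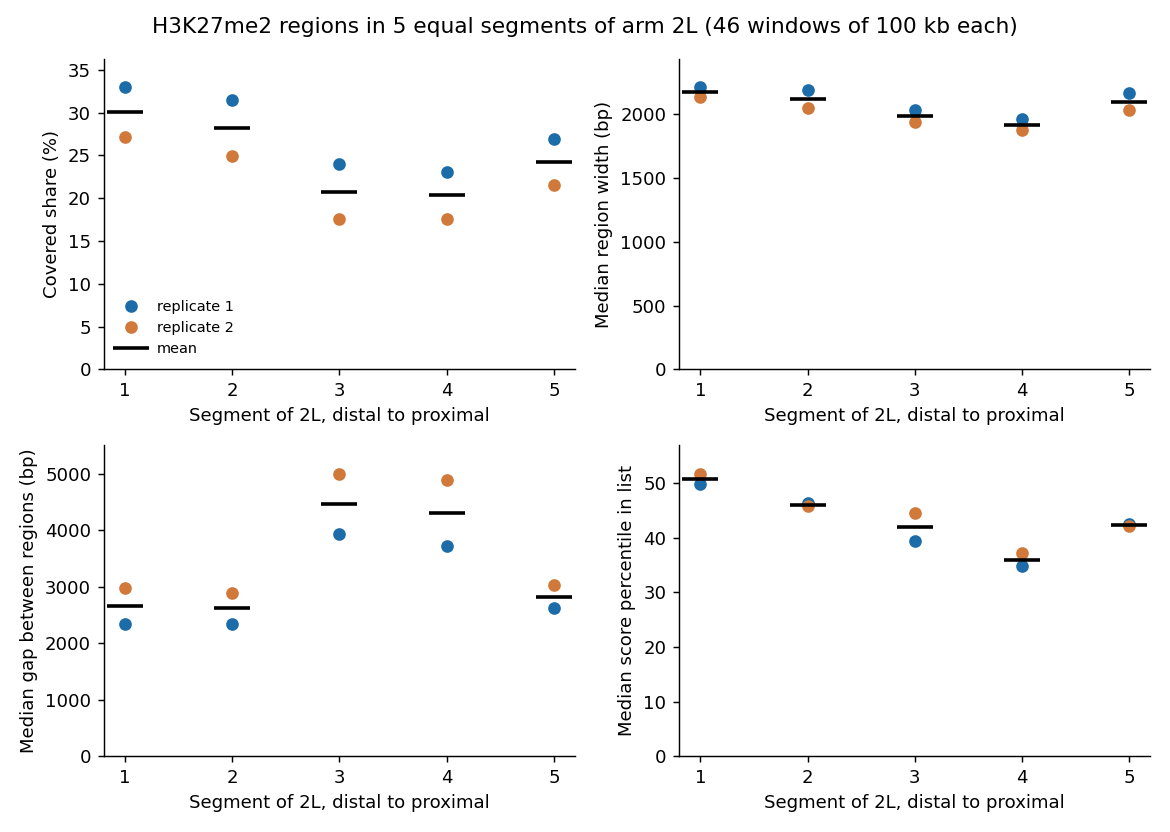
Covered share (%), median region width (bp), median gap (bp) and median score percentile in each of 5 equal segments of arm 2L, from distal to proximal. Points are the 2 replicates and dashes their mean, and gaps are longest in segments 3 and 4, where covered share is lowest.

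Within the segments, covered share changed sharply from one 100 kb window to the next. Over the 230 full windows the median was 27.4% in replicate 1 and 19.6% in replicate 2, with ranges from 0% to 63.6% and from 0% to 62.0%. Windows under 10% numbered 21 in replicate 1 and 37 in replicate 2, and windows of 40% or more numbered 47 and 21. The share of a window and that of its neighbour correlated with a Spearman's rho of 0.334 in replicate 1 and 0.349 in replicate 2, and windows 10 apart with 0.167 and 0.151. Covered share went with the number of regions in a window more than with their median width, with rho of 0.879 against 0.475 in replicate 1 and 0.920 against 0.379 in replicate 2. The contrast was smaller in the combined list, at 0.570 against 0.439. Covered share is made up of the number and widths of regions, so positive values are partly built in. These correlations run across windows of one arm, which share a library and partly the same regions.

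The 10 windows with the highest mean share fell into 3 stretches of the arm. Near the distal end these were the windows from 0.6 to 0.8 Mb and from 0.9 to 1.0 Mb. The highest of all was that from 0.9 to 1.0 Mb, with 18 regions covering 63.6% in replicate 1 and 15 regions covering 62.0% in replicate 2. A further 3 lay between 5.1 and 6.4 Mb, led by the window from 6.3 to 6.4 Mb at 55.0% ± 1.12 (SD, n = 2). The remaining 4 lay between 19.2 and 20.6 Mb. Among them the window from 20.5 to 20.6 Mb was covered to 62.1% in replicate 1 and 55.0% in replicate 2, and the window from 19.2 to 19.3 Mb to 57.5% and 54.0%. Similar shares were built differently: the window from 19.2 to 19.3 Mb held 24 regions in replicate 2 with a median width of 1984 bp, and 17 in replicate 1 with a median of 2941 bp.

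Among the 10 lowest windows were the 3 most proximal ones, from 22.7 to 23.0 Mb, with 1.70% ± 0.370, 0.700% ± 0.989 and 1.62% ± 0.168 covered. The window from 21.4 to 21.5 Mb, most of which lies in the histone gene repeat, was the fourth lowest, with 0% in replicate 1 and 1.77% in replicate 2, the end of a region of the distal flank included. The others lay inside the arm. The window from 10.2 to 10.3 Mb had no region in any list and its proximal neighbour had 1.47% ± 0.140, while the window from 10.6 to 10.7 Mb had 60.1% in replicate 1 and 37.1% in replicate 2. The window from 5.4 to 5.5 Mb had a single region in replicate 1 (1.37%) and 0 in replicate 2.

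**Figure D2:**
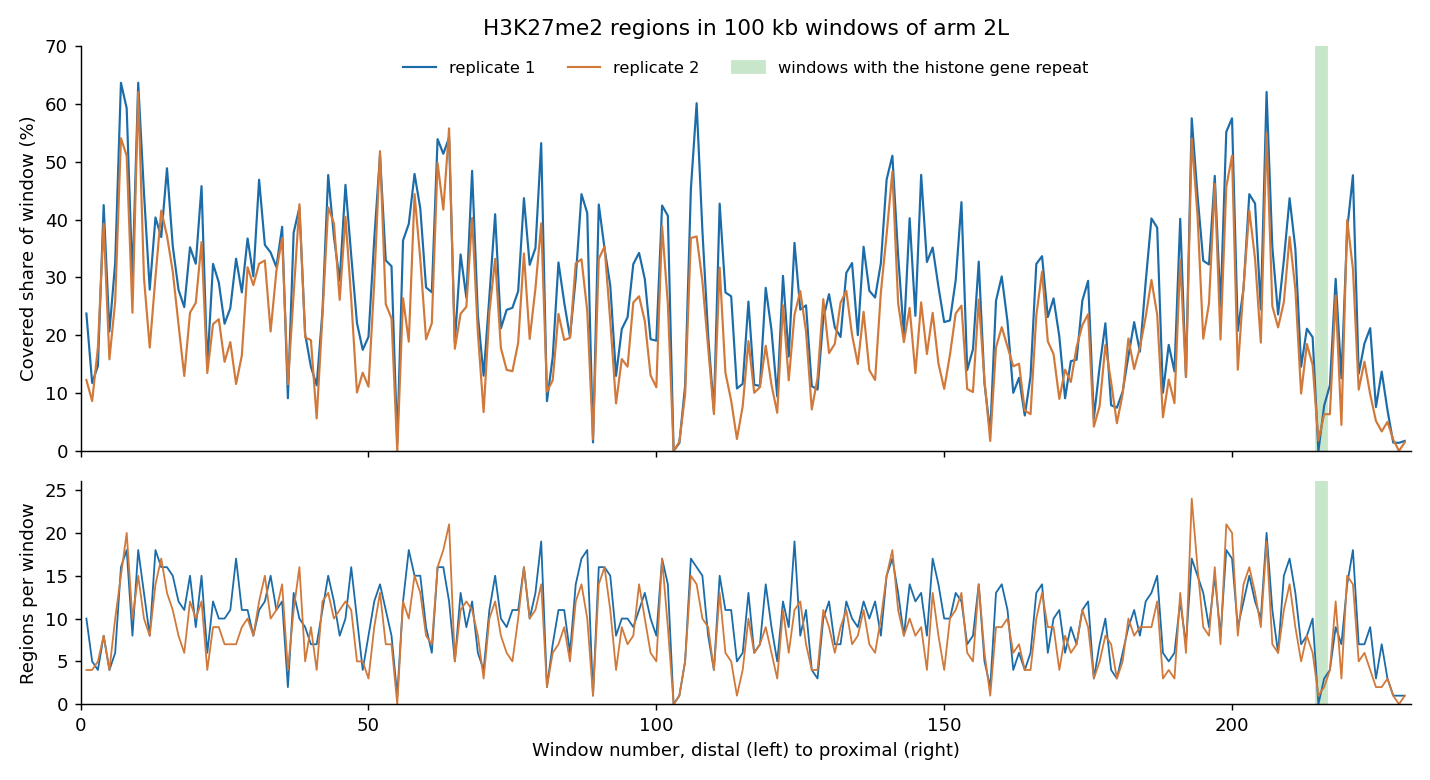
Upper panel, percent of each full 100 kb window of 2L covered by regions, and lower panel, number of regions per window, against the window number from distal to proximal for replicates 1 and 2. Green marks the windows holding the histone gene repeat, and shares run from 0% to 63.6%.

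The widest region of the combined list on 2L spanned 34435 bp from 20516486 to 20550920, in the most proximal segment. Regions of replicate 1 covered 70.0% of it and regions of replicate 2 covered 62.6%, in 8 pieces each. The next was a region of 31251 bp at the distal end, from 314588 to 345838, covered to 95.4% by 3 regions of replicate 1 and to 95.0% by 4 of replicate 2. It held the widest region of either replicate on 2L, of 20264 bp from 325551 to 345814 in replicate 1 and of 18168 bp from 316917 to 335084 in replicate 2. The third spanned 30153 bp from 4483922 to 4514074, of which replicate 1 covered 89.6% and replicate 2 covered 67.6%. A region of 23485 bp from 5121648 to 5145132 was covered to 96.3% and 96.6%, the closest match between replicates among the 10 widest. The largest difference was at 19238126 to 19264832 (26707 bp), with 85.8% in replicate 1 and 45.2% in replicate 2.

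Among the 5 highest-scoring 2L regions of each list were 2 kinds. Wide regions found in both replicates included one at 5030239 to 5036774 in replicate 1, at percentile 99.6, of which 94.8% lay in a region of replicate 2. Its neighbour at 5012910 to 5019369, at percentile 99.5, corresponded to the highest-scoring 2L region of replicate 2, at 5013312 to 5019124. The other kind was narrow and absent from the other replicate. The highest score of replicate 1 on 2L belonged to a region of 1338 bp from 21546625 to 21547962, at the proximal edge of the histone gene repeat, and the next to one of 1442 bp from 22754333 to 22755774, near the proximal end. In replicate 2, 3 of the 5 highest were narrow, at 15674744 to 15676245, 15705270 to 15706984 and 9481384 to 9482820, and each had 0 bp in regions of replicate 1. In the combined list the 5 highest-scoring 2L regions were between 1001 and 1027 bp wide, and none had any sequence in a region of either replicate. They were at or near the smallest width of that list, 1001 bp. No 2L region of replicate 1 was under 1302 bp and none of replicate 2 under 1301 bp. Of the 12 regions of each replicate in the top 1% of its list, 9 overlapped the other replicate. Among all 2L regions the overlapping share was 67.4% in replicate 1 and 82.1% in replicate 2. That share is not matched for width: the top regions had median widths of 4380.5 and 4462 bp, against 2106 and 2017 bp for the rest. Regions of 4 to 10 kb overlapped in 97.8% of cases in replicate 1 and 100% in replicate 2.

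The histone gene repeat was nearly free of called regions except at its edges. Its span was taken as 21.41 to 21.55 Mb (140 kb), which was not checked against a release 5 annotation. In the RefSeq gene table, which is on release 6 and was used for names and neighbours only, 2L holds 111 genes of the 5 histone families, lying between nrv3 and Lamp1 as the nearest other protein-coding genes. Within the span, replicate 1 had 1 region covering 0.956% and replicate 2 had 1 region covering 1.19%. The region of replicate 1 lay at the proximal edge (percentile 99.9), and that of replicate 2 at the distal edge, from 21413395 to 21415066 (percentile 98.5). Neither overlapped the other replicate. The combined list had regions at both edges, from 21408870 to 21411184 and from 21412776 to 21415228 distally and from 21545852 to 21547488 proximally, at percentiles 98.0, 84.1 and 93.8. The region at the proximal edge in replicate 1 ranked 10 in a list of 12968, though regions under 2 kb on 2L had a median percentile of 19.0.

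The flanks of the repeat were covered, but sparsely at first. In the repeat 1.07% ± 0.169 was covered, against 17.3% ± 3.32 in the adjacent 100 kb on the distal side and 10.5% ± 1.84 in those on the proximal side (SD, n = 2 throughout). Between 400 and 500 kb away, shares were 35.6% ± 1.21 distally and 28.9% ± 1.88 proximally. The nearest region beyond the repeat that both replicates shared on the distal side ran from 21397560 to 21399589 in replicate 1 and from 21397346 to 21400100 in replicate 2, at percentiles 50.1 and 92.5. On the proximal side, the first shared region of 4604 bp from 21590944 to 21595547 in replicate 2 ranked at percentile 98.1, and the region of replicate 1 there covered it fully. How reads were mapped is not stated in the labels or headers, and in the repeat a lack of mark cannot be told apart from a lack of placed reads.

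**Figure D3:**
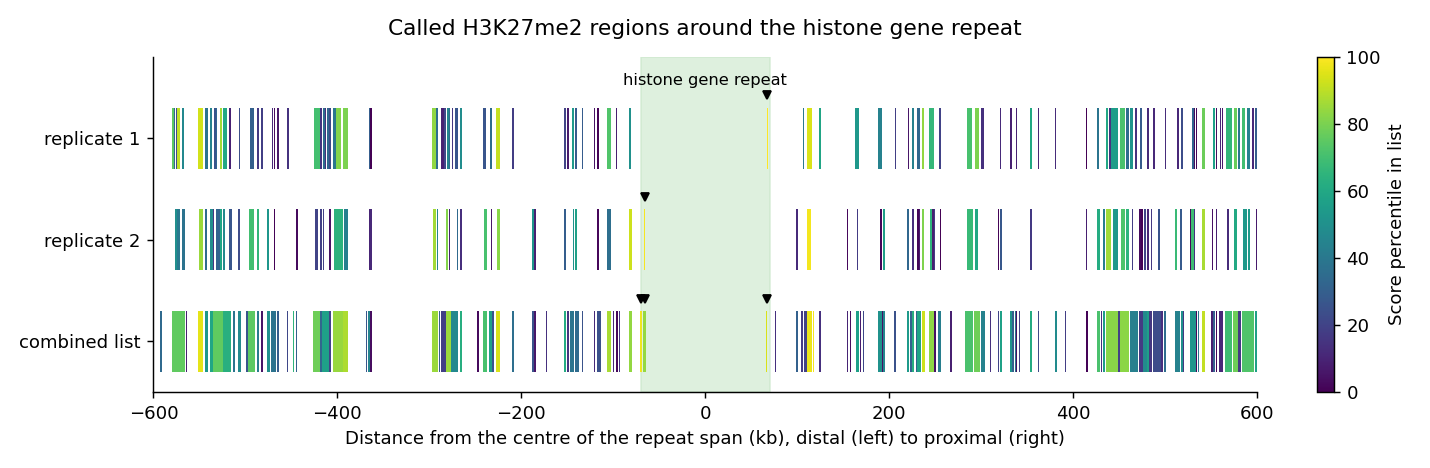
Regions of the 3 lists within 600 kb of the centre of the histone gene repeat (green, 140 kb), by distance in kb, coloured by score percentile in their list. Triangles mark regions that touch the repeat, all at its edges: the combined list has 3 of them and each replicate has 1.

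Proximal of the repeat the arm thinned out towards the centromere. From the repeat to the end of 2L, regions covered 15.9% (replicate 1) and 11.5% (replicate 2), against 28.7% and 22.6% on its distal side, a difference of -11.9 ± 1.19 percentage points (SD, n = 2). Density was 63.6 regions per Mb against 105 in replicate 1 and 50.6 against 91.2 in replicate 2. The first 500 kb past the repeat still had 23.4% and 19.5% covered in the same order, near the 25.1% and 20.8% of the 500 kb distal of it. Mean shares reached 39.1% in the window from 21.9 to 22.0 Mb and 39.6% in the next. All windows from 22.4 to 23.0 Mb had means under 10%, so the lower share lay mostly near the centromere and not at the repeat. There too a lack of mark cannot be told apart from a lack of placed reads. Regions proximal of the repeat were shared with the other replicate in 57.0% (replicate 1) and 74.3% (replicate 2) of cases, against 67.9% and 82.5% distal of it. Their median score percentile was 34.9 against 42.9 for replicate 1 and 26.7 against 44.2 for replicate 2, while the authors' pooled list gave 42.4 against 39.8. The last region of replicate 1 ended at 22948807, that of replicate 2 at 22908103 and that of the combined list at 22985244. The first ones began at 22154, 30699 and 22470.

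Uncalled stretches of at least 50 kb, without a region in any list, numbered 16 on 2L and held 1.21 Mb, or 5.28% of the arm. After the stretch inside the histone repeat (130623 bp), the longest ran from 5373419 to 5490059 (116641 bp) and from 10197813 to 10300234 (102422 bp). The next were from 3526653 to 3619114 (92462 bp) and from 16275809 to 16358724 (82916 bp). Several had well covered sequence on both sides. In the 200 kb before the stretch at 5373419, 38.5% was covered in replicate 1 and 30.2% in replicate 2, and in the 200 kb after it 37.6% and 22.3%. Around the stretch at 3526653 the shares were 34.8% and 33.9% before and 41.7% and 36.1% after. Others stood beside sparse sequence: the stretch at 10197813 was followed by 200 kb with 6.31% and 5.66% covered, which held another uncalled stretch from 10372377 to 10445307 (72931 bp). The stretches were spread over the arm, with 3, 2, 4, 2 and 5 in segments 1 to 5. Taken alone, replicate 1 had 36 such stretches, replicate 2 had 52 and the combined list had 16. Those of the combined list lay at nearly the same positions as the stretches without a region in any list, so that list by itself nearly fixed them. The longest in replicate 1 was 173677 bp from 10197257 to 10370933, and in replicate 2 it was 176277 bp from 22408145 to 22584421.

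Windows high in one replicate were mostly high in the other, at different levels. Across the 230 windows their covered shares had a Spearman's rho of 0.917 and a Pearson's r of 0.923, as a description. Replicate 1 was higher in 198 windows, replicate 2 in 31, and 1 was 0 in both. The median difference, replicate 1 minus replicate 2, was 5.76 percentage points, and the largest was 23.0 points in the window from 10.6 to 10.7 Mb. Of the 23 windows with the highest shares in each replicate, 16 were the same, and of the 23 lowest, 17 were the same.

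**Figure D4:**
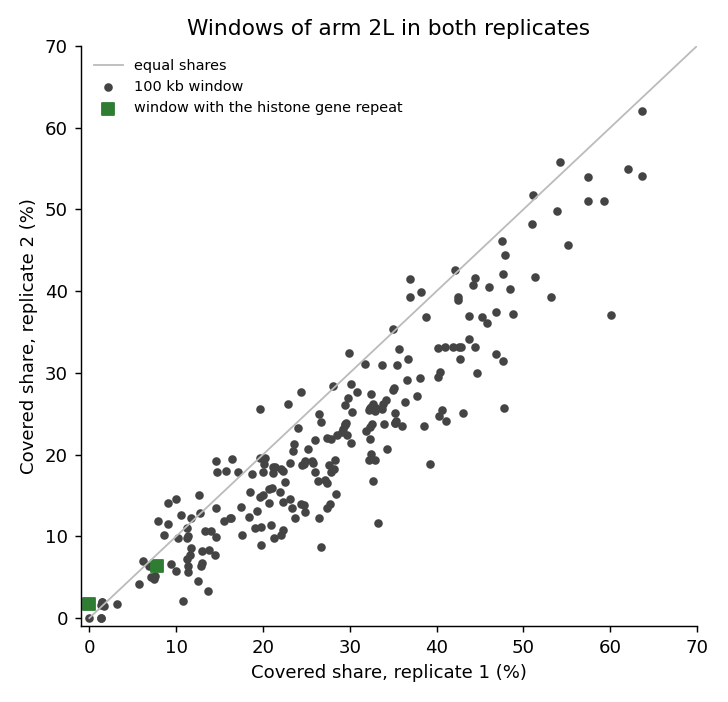
Covered share (%) of each full 100 kb window of 2L in replicate 2 against replicate 1, with green squares for the windows holding the histone gene repeat. Most windows lie below the line of equal shares, 198 of 230 being higher in replicate 1.

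Region by region, 67.4% of the 2L regions of replicate 1 overlapped a region of replicate 2 (95% Clopper-Pearson interval 65.5% to 69.3%), and 82.1% of those of replicate 2 overlapped replicate 1 (80.4% to 83.8%). These intervals treat neighbouring regions as independent, which they are not. On 2R, 3L, 3R and X the shares were 74.0%, 69.4%, 70.5% and 68.8% in replicate 1, and 88.4%, 83.2%, 83.6% and 80.3% in replicate 2. The shares on 2L were thus near those of 3L, 3R and X. Among 2L regions under 2 kb, 44.4% of replicate 1 regions and 69.5% of replicate 2 regions were shared, and from 4 to 10 kb 97.8% and all 217. Sharing went with spacing too. Regions with a neighbour less than 1 kb away were shared in 75.9% of cases in replicate 1 and 86.6% in replicate 2, those 5 to 20 kb from any neighbour in 50.9% and 70.7%. The closely spaced ones were also wider, with medians of 2234 against 1967.5 bp in replicate 1 and 2072 against 1810 bp in replicate 2. Spacing and width were thus not separated, and no comparison with overlap by chance was made. Along the arm, sharing was lowest in segment 4, at 59.1% and 74.0%, and highest in segment 5 for replicate 1 (73.2%) and in segment 2 for replicate 2 (86.6%). The widest region of replicate 1 with no overlap spanned 5992 bp from 433510 to 439501, and that of replicate 2 spanned 3585 bp from 13116590 to 13120174.

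In the authors' combined list, regions overlapping both replicates made up 39.6% of those on 2L, and regions overlapping neither made up 31.6%. These shares were not computed for other arms, so they cannot be read as particular to 2L. The median width was 4213 bp for regions overlapping both and 1403 bp for those overlapping neither. The lists also differ in their narrowest 2L region, of 1001 bp in the combined list and 1302 and 1301 bp in replicates 1 and 2. The share overlapping neither was 28.5%, 27.5%, 34.1%, 37.7% and 28.0% in segments 1 to 5. Segment 4 had the most combined regions (761), with a median width of 1999 bp, whereas segment 1 had 632 with a median of 2596 bp. The combined list is one pooled set, so these values carry no replicate error.

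Beside the other major arms, 2L was an arm of moderate coverage. Its share minus the joint share of 2R, 3L and 3R was -3.17 ± 0.477 percentage points (SD, n = 2). Replicate 1 had 27.7% on 2L against 31.2% on those arms, and replicate 2 had 21.8% against 24.6%. In each replicate 2L lay below 2R, 3L and 3R and above X. Its median gap, 3268 ± 503 bp, was longer than on 2R (2274 ± 334 bp), 3L (2924 ± 447 bp) and 3R (2842 ± 432 bp) in both replicates. It was nearest to that of X (3407 ± 314 bp), with 2912.5 against 3185.5 bp in replicate 1 and 3624 against 3629 bp in replicate 2. Its median width of 2063 ± 64.3 bp was within the spread of 3L at 2056 ± 71.8 bp and of 3R at 2077 ± 108 bp. Regions of at least 10 kb made up 0.597% and 0.197% of 2L regions in replicates 1 and 2, against 1.85% and 1.06% on 2R. On X they made up 0.840% and 0.218%, with 4 such regions on each of the arms 2L and X in replicate 2. The combined list had 3.62% on 2L and 3.33% on X. Median score percentile was 43.2 ± 0.795 on 2L, close to 3L at 44.8 ± 0.105 and 3R at 43.0 ± 1.24. In both replicates it was lower than on 2R (52.1 ± 2.35) and X (70.9 ± 4.21). Uncalled stretches of at least 50 kb numbered 6.95 per 10 Mb on 2L, against 7.57 on 2R, 6.93 on 3L, 8.96 on 3R and 14.7 on X.

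**Figure D5:**
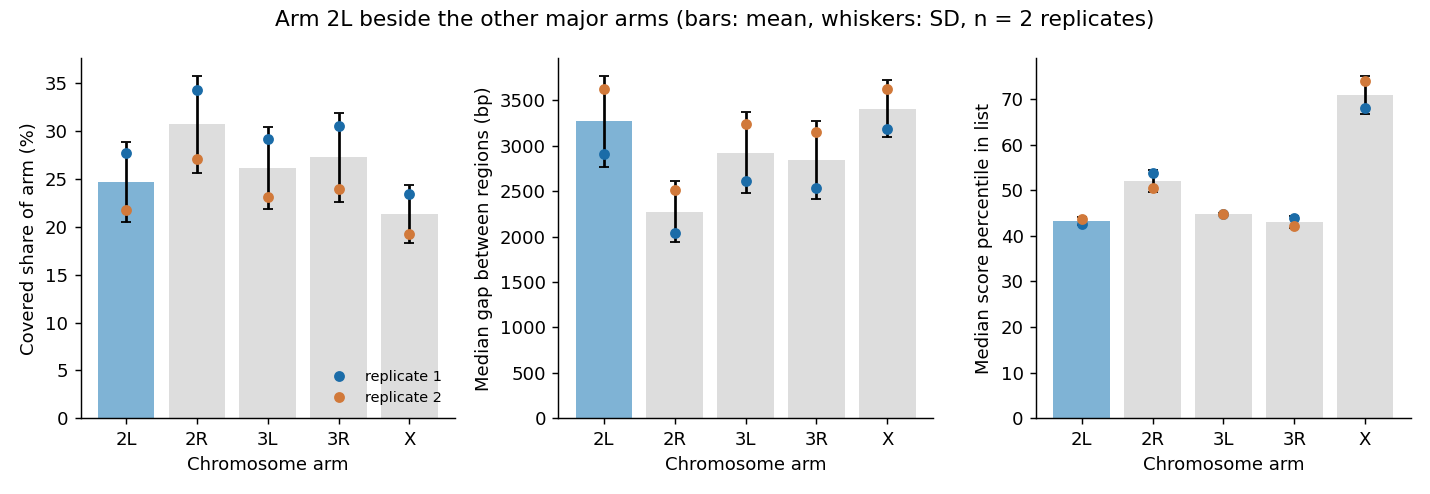
Covered share (%), median gap (bp) and median score percentile of arm 2L (blue bar) and of the other major arms (grey bars), with bars for the mean, whiskers for the SD and points for replicates 1 and 2. In both replicates 2L has a lower share and longer gaps than 2R, 3L and 3R, and a higher share and shorter gaps than X.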

How the data were processed

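The data are 3 lists of significantly enriched regions, namely 1 list for each ChIP sample and a pooled one. Each region has a position on FlyBase release 5, per the file headers, and a score deposited by the authors on a scale the headers do not name. The submitters' processing notes list Bowtie 0.12.7. The labels and headers do not state how regions were called, thresholded and pooled, or how reads were mapped. The inputs have no list of their own and entered no comparison. Per the labels, each input served the ChIP sample of the other replicate number.

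Covered share is the length inside regions over the length of the arm, segment or window, unsequenced bases included. Windows of 100 kb began at position 1, regions belonged to the window of their midpoint, and the last, partial window (11544 bp) was left out of summaries. Regions overlapped from 1 bp. Score percentiles were computed within each whole list. Named regions followed a rule: the widest and highest-scoring of each list, those nearest the histone repeat and the arm ends, and the highest and lowest windows. The members and the lists were chosen with earlier results of these data known. Regions were not matched to genes, since the gene table is on release 6. Alternatives were a score threshold, merging within 1 kb, other windows, 50% reciprocal overlap, other stretch lengths and leaving out a replicate. Interval code was tested on simulated data. Tools were matplotlib 3.10.9, scipy 1.17.1, pandas 2.3.3 and numpy 2.4.6 under Python 3.11.15. Depth is unknown because no file used here gives read counts.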

Additional observations from a re-analysis of the deposited data

How the results depend on the processing

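With 2 replicates, leaving one out returns the value of the other, so the size of the move is fixed by the SD and says nothing on stability. Each difference had the same sign in both replicates. The overlap shares and the correlation need both replicates. When only the better-scoring part of each list was kept (the median score or more), the covered share of 2L fell to 14.1%, the rho between replicates across windows to 0.858, and the shares of overlapping regions to 57.5% in replicate 1 and 69.5% in replicate 2. The median gap grew to 9894 bp, the uncalled stretches of at least 50 kb to 54, and the proximal minus distal difference shrank to -7.61 points; fewer regions by construction. The difference in median score percentile between the most proximal and the most distal segment, -8.43 with all regions, was then -0.26. The cut acts on the score itself and leaves only its upper range, so this check cannot show whether that difference is stable. The difference in median width, -76 bp, reversed to 110.75 bp, and the cause was not tested. In the combined list the covered share was 45.8%, 2L minus the other autosomal arms -2.15 points, proximal minus distal of the repeat -18.2 points, the repeat span 3.77%, the median gap 1399 bp and the width difference -148 bp, and the percentile difference reversed to 1.87; the cause was not tested. Under a 50% reciprocal rule, 48.8% (replicate 1) and 56.5% (replicate 2) were shared. Uncalled stretches numbered 36 in replicate 1 alone, 52 in replicate 2 alone, 16 in the combined list alone, 60 at a minimum of 30 kb and 3 at 100 kb. The 2L share minus that of the other autosomal arms kept its sign in all alternatives run. No paired analysis was possible because no list of input regions was used and, per the labels, an input number does not mark its ChIP sample. Without read counts, depth limits each statement on uncalled sequence.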

Other observations

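Isolated regions on 2L, at least 20 kb from any other of their list, numbered 29 in replicate 1 and 39 in replicate 2. Their median score percentile was 31.2 in replicate 1, against 42.7 for all 2L regions, and 37.2 against 43.8 in replicate 2. Regions in the top 10% of scores made up 13.8% of the isolated ones in replicate 1, against 6.90% of all 2L regions, and 12.8% against 6.31% in replicate 2, shares that rest on few regions. Of the isolated regions of replicate 1, 27.6% overlapped replicate 2, against 67.4% of all its 2L regions. In replicate 2, 64.1% overlapped replicate 1, against 82.1% of all. Isolated regions had median widths of 1678 and 1947 bp, against 2108 and 2017 bp for all 2L regions, so spacing and width were not separated.

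In the window from 8.8 to 8.9 Mb the combined list had 16 regions covering 26.4%, while each replicate had 1 region, covering 1.48% in replicate 1 and 2.01% in replicate 2.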
